A study of Mus musculus with 8 samples.

Results

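Sp1, Sp2, Sp3 and Sp4, members of the Sp family of zinc-finger transcription factors, and the receptor tyrosine kinases Met and Egfr were looked up at the mRNA level in cultured mouse hepatocytes. The members were all probe sets, groups of short DNA probes aimed at 1 transcript, that the platform annotation gives a single symbol equal to 1 of these 6 names. They numbered 15 of the 45101 probe sets on the array and covered 5 of the 6 symbols, among 18194 symbols with a probe set of their own: 3 for Sp1, 1 for Sp3, 2 for Sp4, 2 for Met and 7 for Egfr. Sp2 was not analysed here. The rule itself names genes and uses no measured value, but the genes were picked with earlier results of these data known. Each probe set is described on its own, because probe sets of 1 gene gave different results.

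Primary hepatocytes came from mice on a mixed C57BL6/129SVJ background that were either wild type (WT) or knockout for the crosslinking enzyme transglutaminase 2 (KO, named TG2KO in the labels). They were cultured for 15 h with either no added ethanol (0 mM, called untreated here) or 100 mM ethanol. Each of the 4 groups had 2 arrays, A and B, making 8 arrays in all; the labels give no age, name no deleted part of the Tgm2 gene, and leave unstated whether A and B came from separate animals or cultures. The p-values therefore measure only the spread between these arrays, which may be technical. The title of the series places the study in liver injury and names crosslinking and silencing of Sp1 by transglutaminase 2; the arrays measured mRNA, not Sp1 protein or its crosslinking. For both B ethanol arrays 1 free-text field reads as an untreated control while title and source name say 100 mM; the latter were followed, and for the members each call lost under the other reading is named beside its result.

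Sp factors bind GC-rich promoter elements called GC boxes through 3 zinc fingers. Sp1 is a broadly expressed activator; Sp3 binds the same elements and can activate or repress; Sp4 is best known from neurons. Met is the receptor for hepatocyte growth factor, Egfr the receptor for the epidermal growth factor family, and both drive proliferation and survival of hepatocytes in liver regeneration. Promoters of both receptor genes are textbook examples of Sp1-dependent promoters.

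The promoter windows of the main transcription factor and of both receptors are shown because the question of the study runs from Sp1 to GC boxes. Each window holds 250 bases before and 50 bases after an annotated transcript start, from RefSeq on build GRCm38.p6, written 5′ to 3′ on the gene's strand, with every GGGCGG or its reverse complement CCGCCC in capitals. They are Sp1 at chr15:102406066-102406365 on the plus strand, Met at chr6:17463707-17464006 on the plus strand and Egfr at chr11:16751953-16752252 on the plus strand.
Sp1: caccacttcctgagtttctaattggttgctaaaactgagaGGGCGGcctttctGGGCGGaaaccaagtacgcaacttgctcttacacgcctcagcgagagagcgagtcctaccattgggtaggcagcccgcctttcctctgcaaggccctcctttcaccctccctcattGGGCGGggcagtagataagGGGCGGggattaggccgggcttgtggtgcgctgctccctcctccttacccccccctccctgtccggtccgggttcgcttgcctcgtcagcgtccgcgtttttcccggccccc
Met: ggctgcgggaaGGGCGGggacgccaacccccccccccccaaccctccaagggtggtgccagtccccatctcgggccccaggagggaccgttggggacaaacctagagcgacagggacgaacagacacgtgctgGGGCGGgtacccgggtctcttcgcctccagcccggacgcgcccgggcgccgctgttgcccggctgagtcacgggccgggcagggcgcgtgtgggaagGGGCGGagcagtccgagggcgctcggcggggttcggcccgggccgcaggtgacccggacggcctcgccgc
Egfr: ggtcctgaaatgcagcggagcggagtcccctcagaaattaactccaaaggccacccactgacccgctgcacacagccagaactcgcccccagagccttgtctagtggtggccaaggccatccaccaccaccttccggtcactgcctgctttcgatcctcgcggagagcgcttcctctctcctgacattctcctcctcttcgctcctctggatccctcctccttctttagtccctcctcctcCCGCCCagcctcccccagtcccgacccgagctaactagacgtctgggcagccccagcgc
The Sp1 window held 4 matches and was 61.7% G and C, the Met window held 3 matches at 75.7% G and C, and the Egfr window held 1 match, as CCGCCC, at 62.3% G and C. All 6 symbols were found in the promoter table, with 9 windows, of which 7 held at least 1 match. Over all 32851 windows in the table, 35.7% held at least 1 match and 10.7% held 3 or more. A match is a run of letters and not a measured binding site. On the same build Sp1 spans positions 102406316 to 102436404 of chromosome 15, Met positions 17463349 to 17573980 of chromosome 6 and Egfr positions 16752203 to 16913907 of chromosome 11. The position of each probe set within its transcript was not analysed here.

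Values below are quantile-normalised intensities in arbitrary units, given in the order array A, array B. Differences are on the scale log2(intensity + 16) with their standard error, from limma fitted to all arrays with Benjamini-Hochberg adjustment over 19814 probe sets, and a difference is called at an adjusted p under 0.05. Of the 15 member probe sets, 11 were tested, 2 (both of Sp4) fell below the filter that kept the brighter 50% of complete probe sets, and 2 (1 each of Sp1 and Egfr) had no usable value on WT ethanol array B. The level of 1 probe set cannot be set against that of another, so only changes between arrays are compared. Calls are read against the share of all tested probe sets called. Ethanol in WT called 1.67% of them higher and 3.91% lower; ethanol in KO called 11.4% higher and 10.8% lower. KO against WT called 15.3% higher and 16.9% lower without ethanol, and 14% higher and 15.1% lower with it. The difference between the KO and WT effects of ethanol was called for 3.57% higher and 1.78% lower.

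Among the 11 tested member probe sets, ethanol in WT called 3 lower and 0 higher, and ethanol in KO called 3 lower and 1 higher. The KO and WT groups differed by 5 higher and 1 lower calls without ethanol, and again 5 higher and 1 lower with it. The probe set called lower in both genotype comparisons was the brighter of the 2 for Met. Ethanol effects differed between genotypes for 1 probe set, the dimmer of the 2 for Met. The median difference of the 11 was -0.10 for ethanol in WT, -0.18 for ethanol in KO, 0.55 for KO against WT untreated and 0.32 with ethanol, beside medians over all tested probe sets of 0.01, -0.01, -0.04 and -0.05. The comparisons share groups, so their values are not independent of each other. Most of the 11 were probe sets of Egfr, so the counts and medians do not describe 11 separate genes.

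**Figure D1:**
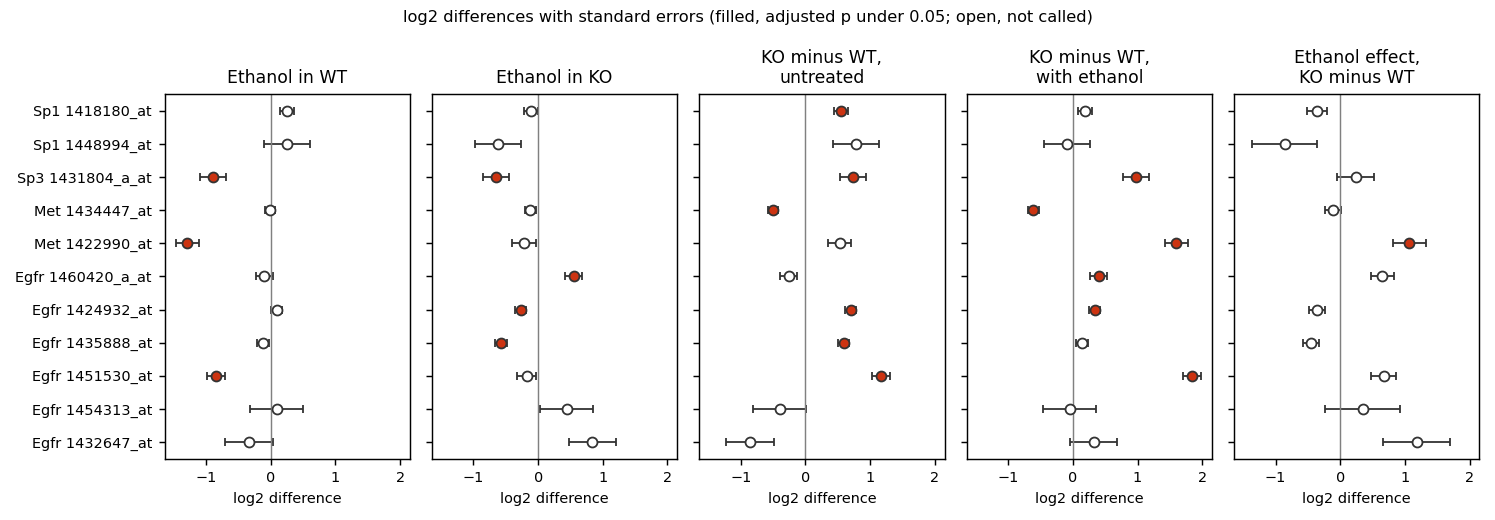
Log2 differences of the 11 tested member probe sets (points) with standard errors (bars) in the 5 comparisons, from limma on all 8 arrays; filled points were called. KO against WT untreated shows 5 probe sets to the right of 0 and Met 1434447_at to the left among those called.

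Sp1 mRNA was higher in untreated KO than in untreated WT hepatocytes on its brightest complete probe set, 1418180_at, and ethanol gave no called change in either genotype. A brighter Sp1 probe set, 1454852_at, incomplete only for WT ethanol array B, showed no such genotype difference (-0.05 ± 0.14, limma adjusted p = 0.838). Probe set 1418180_at read 483 and 469 in untreated WT, 577 and 560 in WT with ethanol, 723 and 682 in untreated KO, and 591 and 716 in KO with ethanol. The order was untreated WT, WT with ethanol, KO with ethanol and untreated KO; only the last 2 overlapped, and of the steps between neighbours none was called. KO exceeded WT by 0.55 ± 0.11 without ethanol (1.46-fold, adjusted p = 0.00461) and by an uncalled 0.19 ± 0.11 with ethanol (adjusted p = 0.232). The first call held in all 19 alternative settings. Ethanol changed it by 0.25 ± 0.11 in WT (adjusted p = 0.263) and by -0.11 ± 0.11 in KO (adjusted p = 0.518). The difference between these effects was -0.36 ± 0.16 (adjusted p = 0.217). KO ethanol arrays A and B lay apart: without A the genotype difference with ethanol was called (0.33, adjusted p = 0.0428), and without B the difference of ethanol effects was (-0.49, adjusted p = 0.0311).

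The other Sp1 probe sets did not add a call. Probe set 1448994_at, designed from the same sequence record (BG916549) as 1418180_at, was dim: 20.6 and 38.1 in untreated WT, 39.5 and 34.3 in WT with ethanol, 53.3 and 68.2 in untreated KO, and 20.9 and 51.2 in KO with ethanol. Both untreated KO arrays lay above all WT arrays, but the difference of 0.78 ± 0.36 was not called (adjusted p = 0.126). Probe set 1454852_at, from record BB795189, read 890 and 687 in untreated WT, 567 on the 1 usable WT ethanol array, 775 and 736 in untreated KO, and 695 and 758 in KO with ethanol. With WT ethanol resting on array A alone, its ethanol effect in WT was -0.45 ± 0.17 (adjusted p = 0.22), opposite in sign to that of 1418180_at. Its untreated KO arrays lay between the 2 untreated WT arrays (-0.05), so this probe set did not share the genotype difference of 1418180_at.

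**Figure D2:**
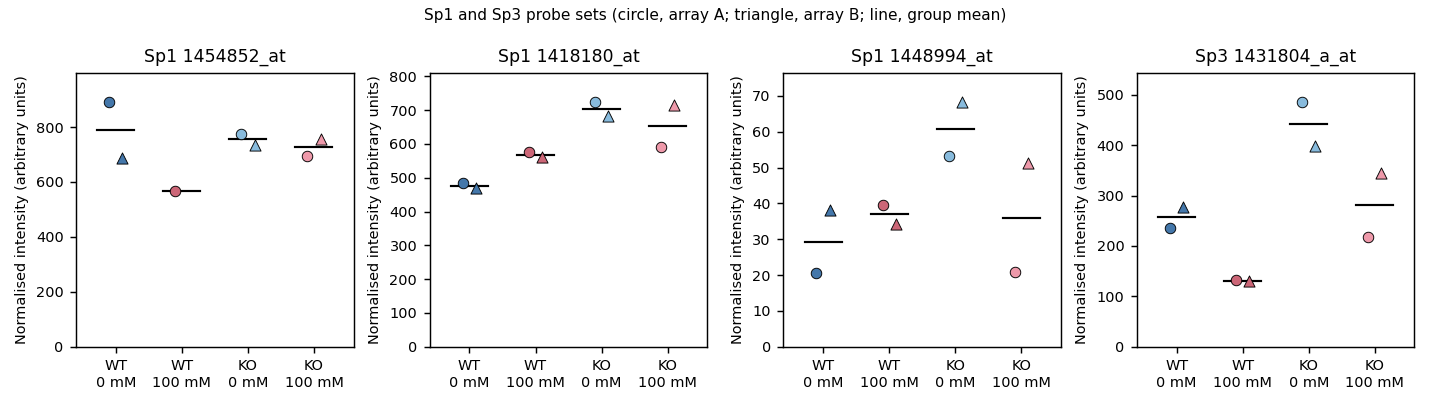
Normalised intensity (arbitrary units, axis from 0) of the 3 Sp1 probe sets and the Sp3 probe set on each array by genotype and ethanol dose; circles are array A, triangles array B, lines group means. Sp1 1418180_at is lowest in untreated WT at 469 to 483, and Sp3 is lowest in WT with ethanol at 130 to 132.

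Sp3 mRNA was lower with ethanol and higher in KO than in WT, in all 4 of those comparisons. Its probe set 1431804_a_at, from record AK004607, read 236 and 277 in untreated WT, 132 and 130 in WT with ethanol, 485 and 398 in untreated KO, and 217 and 345 in KO with ethanol. WT with ethanol was lowest and untreated KO highest, with no overlap with other groups; KO with ethanol spanned the untreated WT values, so those 2 groups are not separated. Ethanol lowered Sp3 by 0.89 ± 0.20 in WT (1.85-fold, adjusted p = 0.037) and by 0.65 ± 0.20 in KO (adjusted p = 0.0482). KO exceeded WT by 0.74 ± 0.20 without ethanol (adjusted p = 0.0205) and by 0.98 ± 0.20 with it (1.97-fold, adjusted p = 0.00634). The ethanol effects in the 2 genotypes differed by 0.24 ± 0.29 (95% interval -0.41 to 0.89, adjusted p = 0.669).

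The ethanol calls for Sp3 depended on single arrays. In WT the call ended in 9 of 19 alternative settings, including without WT untreated array A (adjusted p = 0.127) or B (0.215), without WT ethanol array A (0.176) or B (0.18), and without KO untreated array A (0.0721) or B (0.0713). In KO it ended in 14 of 19: without KO ethanol array A the difference was -0.34 (adjusted p = 0.218), without KO untreated array A -0.51 (0.254) and without B -0.79 (0.0996). Reading both B ethanol arrays as untreated left -0.58 in WT (adjusted p = 1) and -0.85 in KO (0.177), neither called. It also ended there without WT untreated array A (0.0654) or B (0.0669) and without WT ethanol array A (0.0715) or B (0.0722). The genotype call without ethanol ended without WT untreated array A (a difference of 0.64) or KO untreated array A (0.61), and without the variance trend (0.74, adjusted p = 0.0529). The call with ethanol ended only when both B ethanol arrays were read as untreated (0.65).

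Sp4 was near the bottom of the range on both probe sets. Probe set 1437508_at read 7.19 and 10.8 in untreated WT, 14.2 and 12.3 in WT with ethanol, 7.56 and 2.53 in untreated KO, and 8.02 and 9.75 in KO with ethanol. Probe set 1421504_at lay between 2.03 and 20.2 over the 8 arrays, and its highest values were 1 WT ethanol and 1 untreated KO array. Neither passed the filter, and no comparison was called without the filter either. With every group this low, the groups could not be ordered.

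Met responded to genotype and ethanol in different ways on its 2 probe sets. The brighter one was lower in KO than in WT and did not move with ethanol. The dimmer one fell 2.44-fold with ethanol in WT and was 3.03-fold higher in KO than in WT when ethanol was present. With ethanol, the genotype difference was therefore called in opposite directions on the 2 probe sets of this gene.

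The brighter probe set, 1434447_at (record BG060788), read 1440 and 1440 in untreated WT, 1400 and 1470 in WT with ethanol, 967 and 1060 in untreated KO, and 911 and 953 in KO with ethanol. All WT arrays lay above all KO arrays, and the WT groups overlapped each other. KO was lower than WT by 0.50 on the log2 scale without ethanol (-0.50 ± 0.082, 1.42-fold, adjusted p = 0.00154), a call that held in all 19 alternatives. With ethanol the difference was -0.61 ± 0.082 (1.53-fold, adjusted p = 0.000609), and it was not called when both B ethanol arrays were read as untreated (adjusted p = 0.0739). Ethanol gave -0.01 ± 0.082 in WT (95% interval -0.19 to 0.18, adjusted p = 0.976) and -0.12 ± 0.082 in KO (interval -0.30 to 0.07, adjusted p = 0.33).

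The dimmer probe set, 1422990_at (record NM_008591), read 137 and 133 in untreated WT, 51.2 and 41.2 in WT with ethanol, 185 and 221 in untreated KO, and 181 and 163 in KO with ethanol. WT with ethanol was lowest, followed by untreated WT, KO with ethanol and untreated KO; no groups overlapped, though the difference between the KO groups was not called. Ethanol lowered it in WT by 1.29 ± 0.18 (adjusted p = 0.00406), with -1.19 between the A arrays and -1.38 between the B arrays. This call held in 17 of 18 alternatives; with both B ethanol arrays read as untreated the difference was -0.70 (adjusted p = 1). In KO the ethanol difference was -0.22 ± 0.18 (interval -0.62 to 0.19, adjusted p = 0.42). KO exceeded WT by 1.60 ± 0.18 with ethanol (adjusted p = 0.000213), again lost only under that same reading (1.55, adjusted p = 0.142), and by 0.53 ± 0.18 without it (adjusted p = 0.0503). The latter, just outside the threshold, was called in 6 of 18 alternatives, among them without KO ethanol array A (adjusted p = 0.0313) or B (0.0308).

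The effect of ethanol on Met 1422990_at was 1.07 ± 0.26 less negative in KO than in WT (adjusted p = 0.0435). That difference was past the threshold by little and ended in 13 of 18 alternatives, with adjusted p-values of 0.155 and 0.132 without WT untreated array A or B, 0.0859 and 0.146 without WT ethanol array A or B, 0.176 and 0.114 without KO untreated array A or B, and 0.0626 without KO ethanol array A. It was 0.65 with both B ethanol arrays read as untreated (adjusted p = 0.714), and 0.68 with an offset of 64 in place of 16 (adjusted p = 0.0657).

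**Figure D3:**
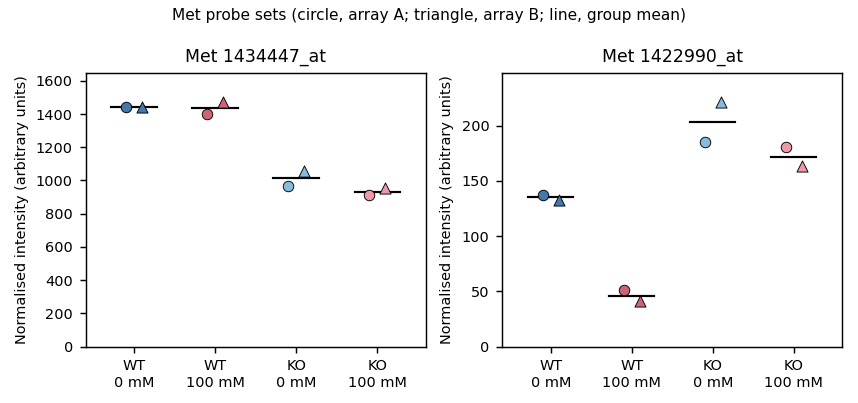
Normalised intensity (arbitrary units, axis from 0) of the Met probe sets on each array by genotype and ethanol dose; circles are array A, triangles array B, lines group means. On 1434447_at both KO groups lie below both WT groups, while on 1422990_at WT with ethanol is lowest at 41.2 to 51.2.

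The disagreement between the Met probe sets was itself tested, on the log2 difference of 1422990_at minus 1434447_at, in a fit over the 7161 tested probe sets that are not their gene's brightest. This test was added after the values were seen. It called 0.824% of such pairs for ethanol in WT, 0.517% for ethanol in KO, 3.42% for KO against WT untreated, 12.3% for KO against WT with ethanol and 0.0978% for the difference of ethanol effects. For Met the pair differed by 2.21 ± 0.18 in KO against WT with ethanol (adjusted p = 0.002), which held in 17 of 18 alternatives and was lost with both B ethanol arrays read as untreated (2.16, adjusted p = 0.0863). For ethanol in WT the pair differed by -1.28 ± 0.18 (adjusted p = 0.0409), and for KO against WT untreated by 1.03 ± 0.18 (adjusted p = 0.0384). The latter pair of calls ended in 12 and 13 of 18 alternatives. Without WT untreated array A or B the ethanol call had adjusted p-values of 0.295 and 0.287, without WT ethanol array A or B 0.248 and 0.193, and 0.124 without either untreated KO array. The untreated call had 0.22 and 0.151 without WT untreated array A or B, 0.171 and 0.19 without KO untreated array A or B, and 0.0724 without either WT ethanol array. Under the other reading of the B ethanol arrays they were -0.65 (adjusted p = 0.917) and 1.44 (0.0702). The ethanol effects on the pair differed by 1.18 ± 0.26 between genotypes, not called (adjusted p = 0.129) except without KO ethanol array B (1.28, adjusted p = 0.0462). As a percentage of the brighter probe set, 1422990_at stood at 9.51 and 9.28 in untreated WT, 3.67 and 2.81 in WT with ethanol, 19.2 and 20.8 in untreated KO, and 19.9 and 17.1 in KO with ethanol.

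Egfr had the most probe sets, and its brighter 4 fell into different patterns. Without ethanol 3 genotype differences were called, all higher in KO, on 1424932_at, 1435888_at and 1451530_at, while the brightest, 1460420_a_at, was not called there. In WT ethanol lowered 1451530_at, and in KO it lowered 1424932_at and 1435888_at and raised 1460420_a_at. In the pair test used for Met, neither 1424932_at nor 1435888_at minus 1460420_a_at was called for ethanol in KO. The values were -0.82 ± 0.19 (adjusted p = 0.087) and -1.12 ± 0.20 (adjusted p = 0.0568).

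Probe set 1460420_a_at (record AF277898) read 1300 and 1120 in untreated WT, 1220 and 1030 in WT with ethanol, 1010 and 1010 in untreated KO, and 1670 and 1320 in KO with ethanol. Only KO with ethanol lay above all other arrays. Ethanol raised it in KO by 0.55 ± 0.13 (1.47-fold, adjusted p = 0.015) and gave -0.10 ± 0.13 in WT (adjusted p = 0.781). Without the variance trend the call in KO was lost (adjusted p = 0.0677). The call in KO ended without KO untreated array A (adjusted p = 0.0876) or B (0.0851), without KO ethanol array A (0.39, adjusted p = 0.0664) and under the other reading of the B ethanol arrays (0.123). With ethanol KO exceeded WT by 0.40 ± 0.13 (adjusted p = 0.044), which ended in 11 of 19 alternatives: it was 0.28 without WT ethanol array B (adjusted p = 0.262) and 0.23 without KO ethanol array A (0.204), and the adjusted p was 0.0527 without WT ethanol array A, 0.051 and 0.0513 without WT untreated array A or B, and 0.0738 without either untreated KO array. It also ended with both B ethanol arrays read as untreated (0.44, adjusted p = 0.296). The ethanol effects differed by 0.65 ± 0.18 between genotypes, which was not called (adjusted p = 0.0717). It was called without KO ethanol array B (0.82, adjusted p = 0.00994), without both B ethanol arrays (0.70, adjusted p = 0.0216), with the replicate letter as a block (0.0289) and with the spike-in ratio as a term (0.0325).

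Probe set 1424932_at (record U03425) read 775 and 716 in untreated WT, 783 and 808 in WT with ethanol, 1200 and 1250 in untreated KO, and 1010 and 1020 in KO with ethanol. The order was both WT groups, then KO with ethanol, then untreated KO, and the KO groups did not overlap with each other or with WT. KO exceeded WT by 0.70 ± 0.083 without ethanol (1.63-fold, adjusted p = 0.000258), in all 19 alternatives, and by 0.34 ± 0.083 with it (adjusted p = 0.0132). The latter ended without WT ethanol array A (a difference of 0.32) or B (0.36) and with both B ethanol arrays read as untreated (0.36). Without the variance trend that call was lost too (adjusted p = 0.0519). Ethanol lowered it in KO by 0.27 ± 0.083 (adjusted p = 0.0479), a call that ended in 14 of 19 alternatives, among them the omission of KO ethanol array A (0.0913), of KO untreated array A (0.141) or B (0.219), of WT untreated array A (0.0704) or B (0.0701) and of WT ethanol array A (0.0742) or B (0.0746). The other reading of the B ethanol arrays gave -0.18 (adjusted p = 0.533).

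Probe set 1435888_at (record AV369812) read 571 and 564 in untreated WT, 534 and 512 in WT with ethanol, 874 and 853 in untreated KO, and 562 and 594 in KO with ethanol. Untreated KO stood above every other array, and KO with ethanol overlapped untreated WT. KO exceeded WT by 0.59 ± 0.09 without ethanol (1.51-fold, adjusted p = 0.00103) but by an uncalled 0.14 ± 0.09 with it (adjusted p = 0.282). Ethanol lowered it in KO by 0.57 ± 0.09 (1.48-fold, adjusted p = 0.00283). Both calls ended only when both B ethanol arrays were read as untreated (adjusted p = 0.0668 and 0.273). The ethanol effects differed by -0.45 ± 0.13 between genotypes (adjusted p = 0.0741), called without KO ethanol array B (-0.49, adjusted p = 0.026).

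Probe set 1451530_at, from the same record as 1424932_at, read 246 and 243 in untreated WT, 136 and 120 in WT with ethanol, 605 and 534 in untreated KO, and 557 and 448 in KO with ethanol. WT with ethanol was lowest and untreated WT next, and the KO groups were highest and overlapped. KO exceeded WT by 1.17 ± 0.14 without ethanol (2.24-fold, adjusted p = 0.000287) and by 1.84 ± 0.14 with it (3.58-fold, adjusted p = 2.08e-05); both held in all 19 alternatives. Ethanol lowered it in WT by 0.85 ± 0.14 (1.81-fold, adjusted p = 0.00893), and gave -0.18 ± 0.14 in KO (adjusted p = 0.389). Without the variance trend the call in WT was lost (adjusted p = 0.0517). The call in WT ended without WT untreated array A (adjusted p = 0.075) or B (0.0721), without WT ethanol array B (-0.77, 0.0755) and under the other reading of the B ethanol arrays (-0.46, adjusted p = 1). The ethanol effects differed by 0.67 ± 0.20 between genotypes, which was not called (adjusted p = 0.0867) but was without KO ethanol array B (0.83, adjusted p = 0.016).

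**Figure D4:**
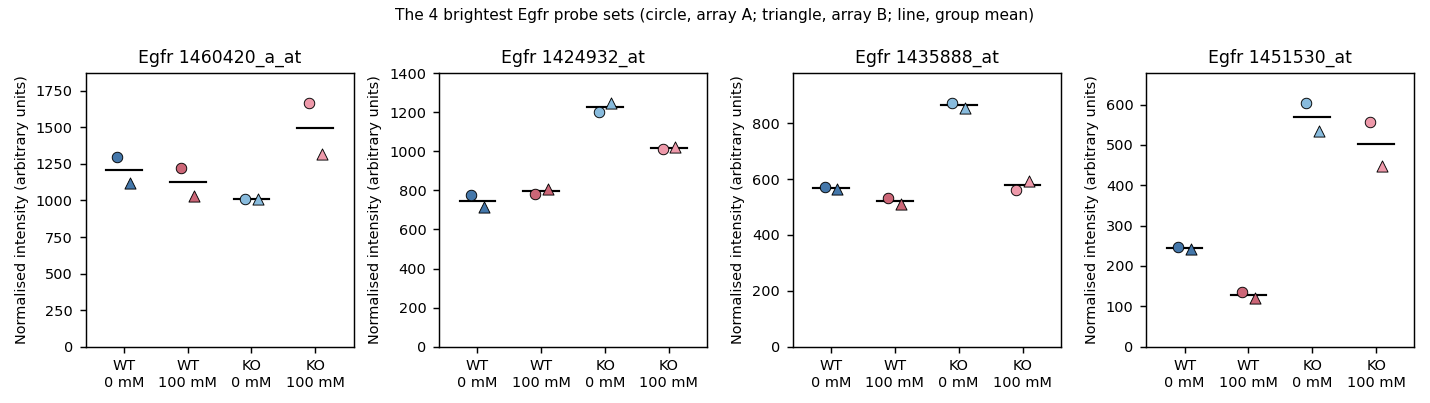
Normalised intensity (arbitrary units, axis from 0) of the 4 brightest Egfr probe sets on each array by genotype and ethanol dose; circles are array A, triangles array B, lines group means. KO with ethanol is highest on 1460420_a_at, untreated KO is highest on 1424932_at and 1435888_at, and WT with ethanol is lowest on 1451530_at at 120 to 136.

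The other 3 Egfr probe sets were dim and gave no call. Probe sets 1454313_at and 1432647_at, both from record AK014017, ranged from 26 to 103 and from 23.4 to 86.3 over the 8 arrays. Probe set 1457563_at, with no usable value on WT ethanol array B, ranged from 0.658 to 18.4 on the other arrays.

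Against 1460420_a_at, Egfr 1451530_at differed by 1.42 ± 0.17 in KO against WT untreated (adjusted p = 0.0145) and by 1.44 ± 0.17 with ethanol (adjusted p = 0.00418), in the same test as for the Met pair. Without the filter the first of these was not called (adjusted p = 0.0615). The first of these ended without either untreated WT array (adjusted p = 0.133 and 0.0912 for A and B) or either untreated KO array (0.116 and 0.102), and the second only with both B ethanol arrays read as untreated (adjusted p = 0.114). Its difference for ethanol in WT, -0.76 ± 0.17, was not called (adjusted p = 0.118). Egfr 1424932_at differed from 1460420_a_at by 0.96 ± 0.19 in untreated KO against WT (adjusted p = 0.0485), a call that ended in 12 of 19 alternatives, with adjusted p-values up to 0.251 (without WT untreated array A); without WT untreated array B it was 0.163, without KO untreated array A or B 0.201 and 0.212, without either WT ethanol array 0.0854, and with both B ethanol arrays read as untreated 0.139. As a percentage of 1424932_at, with which it shares its sequence record, 1451530_at stood at 31.7 and 33.9 in untreated WT, 17.4 and 14.9 in WT with ethanol, 50.5 and 42.8 in untreated KO, and 55 and 44.1 in KO with ethanol. In this pair both WT ethanol arrays were lowest and every KO array lay above every WT array. Which Egfr probe set served as the reference mattered. As a percentage of 1460420_a_at, 1451530_at stood at 18.9 and 21.8 in untreated WT, 11.2 and 11.6 in WT with ethanol, 60.1 and 53.1 in untreated KO, and 33.4 and 33.9 in KO with ethanol. Against that reference the ethanol difference was -0.74 ± 0.17 in KO (adjusted p = 0.0813), close to that in WT, and the effects differed by 0.02 ± 0.24 between genotypes (adjusted p = 0.972); for the Met pair the value in KO was -0.10 ± 0.18 (adjusted p = 0.776). The third bright Egfr probe set, 1435888_at, stood at 73.7 and 78.8 percent of 1424932_at in untreated WT, 68.1 and 63.3 in WT with ethanol, 73 and 68.4 in untreated KO, and 55.5 and 58.5 in KO with ethanol, so that for this pair KO with ethanol was lowest.

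**Figure D5:**
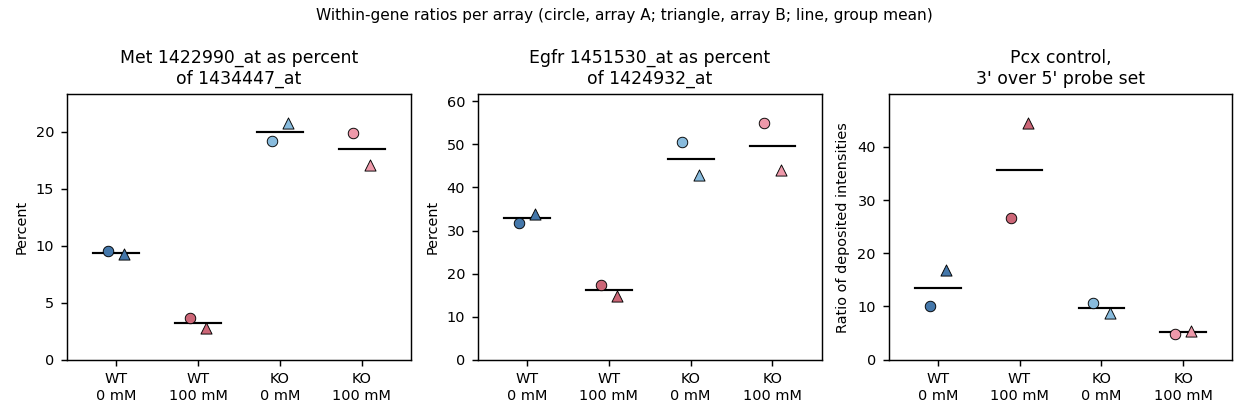
Dimmer probe set as a percentage of a brighter probe set of the same gene on each array (circles array A, triangles array B, lines group means), for Met and for Egfr, and the Pcx 3′ over 5′ control ratio described after it. In the 2 pairs drawn, Met 1422990_at over 1434447_at and Egfr 1451530_at over 1424932_at, WT with ethanol is lowest and the KO groups lie above the WT groups; other Egfr pairs differ, as given in the text.

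Control probe sets for RNA integrity stood apart in WT with ethanol for Pcx, Actb and Gapdh, but not for Tfrc. The array carries probe sets at the 3′ and 5′ ends of control transcripts, whose 3′ over 5′ ratio rises when a transcript is less fully copied towards its 5′ end. For Pcx, a long transcript of pyruvate carboxylase, the ratio was 10 and 16.8 in untreated WT, 26.7 and 44.5 in WT with ethanol, 10.6 and 8.69 in untreated KO, and 4.91 and 5.45 in KO with ethanol. For Actb it was 1.33 and 1.24, 1.62 and 1.48, 1.25 and 1.24, and 1.23 and 1.15 in the same order, and for Gapdh 0.831 and 0.821, 0.977 and 0.928, 0.78 and 0.771, and 0.826 and 0.839. All 3 were highest in WT with ethanol, the group in which Met 1422990_at, Egfr 1451530_at and Sp3 were lowest. Between untreated WT and untreated KO, where the Met percentage went from 9.51 and 9.28 to 19.2 and 20.8, the Pcx ratios were 10 and 16.8 against 10.6 and 8.69 and the Actb ratios overlapped. The Gapdh ratios were lower in untreated KO without overlap (0.831 and 0.821 against 0.78 and 0.771). With ethanol the Pcx ratios were 26.7 and 44.5 in WT against 4.91 and 5.45 in KO. The Met percentages there were 3.67 and 2.81 against 19.9 and 17.1. From untreated KO to KO with ethanol the Pcx ratios were lower while the Met percentages overlapped. The ratio for Tfrc was not highest in WT with ethanol: 5.17 and 4, 3.33 and 6.33, 1.87 and 4, and 2.39 and 4.31. Over the 7161 further probe sets, 56 fell and 3 rose relative to their gene's brightest with ethanol in WT, and 673 rose and 210 fell in KO against WT with ethanol. The part of RNA integrity in the Met, Egfr and Sp3 values was not tested.

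Of the spiked bacterial control RNAs, bioC over bioB was 0.937 to 1.06 on the A arrays of untreated WT, WT with ethanol and KO with ethanol and 2.59 to 3.14 on the other 5. The A and B pairs for ethanol in WT, and for KO against WT with ethanol, each lay within 1 of these sets, while the A pairs for ethanol in KO and for KO against WT untreated crossed them. For ethanol in WT the A and B values were -1.19 and -1.38 on Met 1422990_at, -0.78 and -0.93 on Egfr 1451530_at and -0.77 and -1.01 on Sp3; for ethanol in KO on Sp3, where the A pair crossed the sets, they were -1.10 and -0.20. With the spike-in ratio as a term in limma, 2 member calls for ethanol in KO remained. Those lost were Sp3 (-0.51, adjusted p = 0.0923) and Egfr 1424932_at (-0.28, adjusted p = 0.0617). The calls for ethanol in WT on Met 1422990_at, Egfr 1451530_at and Sp3 were kept with that term. Beyond this, the part of the split in the results was not tested. Before normalisation the trimmed mean intensity ranged from 98.47 to 297.4, with 3 of the 4 KO arrays lowest, and the KO ethanol arrays correlated least with each other (r = 0.967 beside 0.986 to 0.987). Tgm2, the targeted gene, read 16700 to 16800 on the WT arrays and 368 to 704 on the KO arrays, which matches the labels.

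Markers of cell types placed the cultures as hepatocytes, with Alb between 11800 and 16700 on every array. The summed level of the 8 measured hepatocyte markers of 10 was 75700 to 80000 in WT and 70900 to 73600 in KO. Of these 8, untreated KO against WT called 2 higher and 5 lower with a median of -0.26. With ethanol 0 were called higher and 4 lower. Hnf4a read 1150 and 1200 in untreated WT against 467 and 430 in untreated KO, and Cps1 4520 and 4820 against 3000 and 3100. Alb went the other way, at 14100 and 14100 against 15400 and 16100. The summed macrophage markers (7 of 8 measured) were 941 to 1090 in WT and 1550 to 2310 in KO, with Cd68 at 411 to 570 in WT and 1240 to 1860 in KO, while Clec4f, a Kupffer cell marker, was between 64.4 and 91.1. That sum rested on Cd68: of 5 macrophage markers tested in untreated KO against WT, 1 was called higher and 2 lower with a median of -0.55, and Marco (127 and 135 against 65.3 and 52.7) and Csf1r (182 and 151 against 97.2 and 102) were the lower ones. Biliary markers (4 of 5 measured) summed to 312 to 460 in WT and 768 to 1120 in KO, with Sox9 at 232 to 323 in WT and 686 to 1050 in KO, while Krt19 and Krt7, which define bile duct cells, were at most 49.6 and 25.5. That sum rested on Sox9. Of 2 biliary markers tested in untreated KO against WT, Sox9 was called higher and Epcam was not called (122 and 45.7 in WT, 25.4 and 45.2 in KO). Krt19 read 49.6 and 49 in untreated WT against 40.9 and 24.9 in untreated KO. Summed stellate cell markers were 260 to 441 in WT and 451 to 778 in KO. Of the 5 tested in untreated KO against WT, Dcn alone was called (124 and 89.5 against 322 and 347) and the median was -0.37; Acta2 was at 22.3 and 53.2 in untreated KO and at 273 on 1 KO ethanol array, the one with the highest sum. Endothelial markers summed to 546 to 722 and 628 to 699, and leukocyte markers to 159 to 220 and 180 to 256, in WT and KO. The genotype differences of Sp1, Sp3, Met and Egfr stand beside these values, and the part of other cells in them was not tested. In such bulk samples fewer cells of a type and less RNA per cell cannot be told apart.

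Genes around these factors and receptors were described from 10 lists, each gene by its brightest complete probe set. Over the 10741 genes so tested, ethanol in WT called 2.3% higher and 2.51% lower, and ethanol in KO called 14.1% higher and 10% lower. KO against WT called 15.1% higher and 21% lower without ethanol and 12.4% higher and 17.5% lower with it. The difference of ethanol effects was called for 3.21% higher and 1.81% lower. Calls for the genes named below come from the same limma fit with Benjamini-Hochberg adjustment and were not given separately with arrays left out. Nor were they given separately with both B ethanol arrays read as untreated. Under that reading far fewer probe sets were called for ethanol in KO and for KO against WT with ethanol. With both B ethanol arrays read as untreated, limma called 0 probe sets for ethanol in WT (752 had an unadjusted p under 0.05) and 0 for the difference of ethanol effects (2401), so every call named below in those 2 comparisons was lost under that reading.

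Other Sp factors were represented by Sp6 and Sp7, both dim and with no call in any comparison, where 1 of the 2 had an unadjusted p under 0.05 for ethanol in KO, for KO against WT with ethanol and for the difference of ethanol effects. Of 14 tested partners and modifiers of Sp1, ethanol in WT called 0 (3 at an unadjusted p under 0.05) and ethanol in KO called 3 lower. KO against WT called 5 higher and 1 lower without ethanol and 2 higher and 2 lower with it. Rnf4, a ubiquitin ligase for sumoylated proteins, was higher in KO by 0.65 ± 0.088 and 0.83 ± 0.088 without and with ethanol (adjusted p = 0.000569 and 0.00015). Ogt, which attaches O-linked N-acetylglucosamine to Sp1 and many other proteins, read 429 and 352 in untreated WT and 851 and 849 in untreated KO (1.10 ± 0.13, adjusted p = 0.000267), and fell with ethanol in KO (-0.51 ± 0.13, adjusted p = 0.0223). Csnk2a1, a subunit of casein kinase 2, was the 1 gene of this list with a called difference of ethanol effects (-0.83 ± 0.14, adjusted p = 0.0131): it fell with ethanol in KO by 0.50 and read 0.32 higher, not called, in WT (adjusted p = 0.105). Hdac1, a histone deacetylase, fell with ethanol in KO by 0.70 ± 0.12 (adjusted p = 0.00428).

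Of 12 genes with textbook Sp1-dependent promoters, ethanol in WT called 1 higher and 2 lower, and ethanol in KO 2 higher and 1 lower. KO against WT called 4 higher and 3 lower without ethanol and 3 higher and 2 lower with it, so the list did not move in 1 direction. Bsg, a membrane glycoprotein that chaperones lactate transporters, read 4750 and 5090 in untreated WT, 3340 and 3400 in WT with ethanol, 7100 and 7100 in untreated KO, and 8060 and 6580 in KO with ethanol. It fell with ethanol in WT by 0.54 ± 0.091 (adjusted p = 0.00957), and its ethanol effects differed between genotypes by 0.58 ± 0.13 (adjusted p = 0.0347). Vegfa, an angiogenic growth factor, read 599 and 530, 359 and 305, 1550 and 1630, and 1150 and 1480 in the same order, fell with ethanol in WT by 0.74 ± 0.13 (adjusted p = 0.0136) and was higher in KO by 1.47 and 1.93 without and with ethanol. The group order of both was that of Met 1422990_at in so far as WT with ethanol was lowest. Cdkn1a, an inhibitor of cyclin-dependent kinases, was higher in KO by 0.78 ± 0.072 without and 0.68 ± 0.072 with ethanol (adjusted p = 6.6e-05 and 0.000155). Tk1, a thymidine kinase of dividing cells, ran the other way: it read 73.2 and 80.8 in untreated WT and 6.13 and 6.91 in untreated KO (adjusted p = 0.000334), and rose with ethanol in KO to 45.1 and 39.4 (adjusted p = 0.00569). No size is given for these differences, since the values near 6 lie under the offset of 16.

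Ligands and their activators showed opposite changes within the lists. Of 6 tested genes for hepatocyte growth factor and its activation, ethanol in WT called 0 (0 at an unadjusted p under 0.05) and ethanol in KO called 3 higher. Between genotypes 1 was called higher and 2 lower in KO without ethanol, and 2 higher and 1 lower with it. Hpn, the membrane protease hepsin that can activate the growth factor, read 1160 and 1350 in untreated WT and 520 and 478 in untreated KO (-1.30 ± 0.12, adjusted p = 5.1e-05), and rose with ethanol in KO by 0.78 ± 0.12 (adjusted p = 0.00209). Hgfac, the circulating activator of the growth factor, rose with ethanol in KO by 0.56 ± 0.08 (adjusted p = 0.00178), 0.51 ± 0.11 more than in WT (adjusted p = 0.0347). Mst1, a relative of hepatocyte growth factor made by the liver, rose with ethanol in KO by 0.54 ± 0.092 (adjusted p = 0.00383), and Plat, tissue plasminogen activator, was higher in KO by 0.77 and 0.82 without and with ethanol. Of 4 tested ligands of the epidermal growth factor family, ethanol in WT called 1 lower and ethanol in KO called 0 (0 at an unadjusted p under 0.05). In KO 2 were called higher and 1 lower than in WT without ethanol and 1 higher with it. Btc read 321 and 333 in untreated WT and 772 and 702 in untreated KO, a difference of 1.13 ± 0.12 (adjusted p = 0.000112). Ereg was higher by 1.02 ± 0.33 (adjusted p = 0.0426) but dim, at 18.5 and 33.1 in untreated WT and 72.5 and 62.8 in untreated KO. Its WT values lie close to the offset of 16, so this size is uncertain. Hbegf was lower in untreated KO by 0.38 (-0.38 ± 0.089, adjusted p = 0.00997). Hbegf also fell with ethanol in WT by 0.38 ± 0.089 (adjusted p = 0.0406).

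Among other receptors, Erbb3, a partner of Egfr with little kinase activity of its own, was lower in KO. It read 285 and 268 in untreated WT, 445 and 428 in WT with ethanol, 72.3 and 87.9 in untreated KO, and 142 and 179 in KO with ethanol. KO against WT gave -1.61 ± 0.16 without ethanol (adjusted p = 9.73e-05), and ethanol raised it in KO by 0.87 ± 0.16 (adjusted p = 0.00544) and gave an uncalled 0.63 in WT. Of 14 other receptor tyrosine kinases, KO against WT called 0 higher and 3 lower without ethanol and 3 higher and 2 lower with it, ethanol in KO called 1 higher, and ethanol in WT called 0 (4 at an unadjusted p under 0.05). Ddr1, a collagen receptor, was lower in KO (-1.02 ± 0.22 without and -1.59 ± 0.22 with ethanol, adjusted p = 0.00614 and 0.000651), as was Epha1 (adjusted p = 0.0386 and 0.00196), at 48.7 to 76.3 in WT and 4.22 to 19.3 in KO, too dim in KO for a size. Epha2, an ephrin receptor, was the 1 gene of this list with a called difference of ethanol effects (0.89 ± 0.17, adjusted p = 0.0183).

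Downstream of the receptors, 14 adaptors and effectors gave 6 higher and 3 lower calls in KO against WT without ethanol, 3 higher and 4 lower with it, 3 higher and 3 lower for ethanol in KO, and 0 for ethanol in WT (2 at an unadjusted p under 0.05). Gab1, the docking protein of Met, was at 285 and 264 on the untreated WT arrays, 91.1 and 103 on those of untreated KO and 196 and 205 with ethanol in KO, a genotype difference of -1.36 ± 0.14 without ethanol (adjusted p = 0.000107). Cd44, a hyaluronan receptor that can present hepatocyte growth factor to Met, read 317 and 310 in untreated WT and 1180 and 1190 in untreated KO (1.87 ± 0.13, adjusted p = 1.25e-05), and fell with ethanol in KO by 1.07 ± 0.13 (adjusted p = 0.000914). Of 12 genes for receptor downregulation, KO against WT called 3 higher and 2 lower without ethanol and 4 higher and 2 lower with it, ethanol in KO called 3 higher and 2 lower, and ethanol in WT called 0 (3 at an unadjusted p under 0.05). Lrig1, which promotes degradation of ErbB receptors, was higher in KO by 0.87 ± 0.12 without and 0.88 ± 0.12 with ethanol (adjusted p = 0.000589 and 0.000628). Ptpn1 went the other way, at -0.63 ± 0.084 without and -0.55 ± 0.084 with ethanol (adjusted p = 0.000484 and 0.0012). Sh3gl1 was the 1 gene of this list with a called difference of ethanol effects (0.94 ± 0.17, adjusted p = 0.014). Hgs rose with ethanol in KO by 0.79 ± 0.13 (adjusted p = 0.00299). Of 10 feedback genes of the ERK pathway, KO against WT called 1 higher and 2 lower without ethanol and 2 higher with it, ethanol in WT called 1 lower, and ethanol in KO 1 higher and 1 lower. Dusp5, a nuclear phosphatase for ERK, fell with ethanol in WT by 0.39 ± 0.09 and rose in KO by 0.29 ± 0.09, a difference of 0.69 ± 0.13 (adjusted p = 0.0173). Phlda1 was higher in KO by 1.03 ± 0.085 without ethanol (adjusted p = 3.34e-05), and Spry1, an inhibitor of receptor signalling, was lower (-1.08 ± 0.24, adjusted p = 0.0072).

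The genes whose log2 values over the 8 arrays were most like the brightest complete probe set of Sp1, Met and Egfr were found among 10740 others, by Pearson's r, as a description over 4 groups of 2 arrays. For Sp1 1418180_at they were Irak3 (r = 0.983), Slc5a3 (0.982) and Il33 (0.982). For Met 1434447_at they were Rab34 (r = 0.994), Tpst1 (0.993) and Nqo1 (0.992). For Egfr 1460420_a_at they were Srpr (r = 0.968), Tirap (0.962) and Dact2 (0.96).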

How the data were processed

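RNA from mouse hepatocytes was labelled as biotin cRNA and hybridised to 8 one-colour oligonucleotide arrays, 2 for each of 4 groups, per the labels' protocols. The deposited values are linear intensities; summarisation software, scaling and genome build are not stated in the labels or file headers used here. Of 45101 probe sets, 64 controls and 5410 that WT ethanol array B lists at 0 (5403) or at impossible values (7) were removed, leaving 39627. These were quantile-normalised and turned into log2(intensity + 16), which understates changes of dim probe sets. The brighter 50% by mean over all arrays (19814, mean log2 of at least 5.4) were fitted with limma 3.58.1 in R 4.3.3 as 4 group means with a variance trend (4 residual and 5.43 prior degrees of freedom), with Benjamini-Hochberg adjustment within each comparison and calls at an adjusted p under 0.05. The script was checked on simulated data. Probe sets of 1 gene were compared as log2 differences without a trend, a test added after the values were seen. Of the probe sets, 34958 have 1 symbol in the platform annotation, 932 several and 9211 none. The members, the 16 lists (154 genes, 147 on the array) and the tests were chosen with earlier results of these data known. Named are all members, per list up to 4 genes with the smallest adjusted p in any comparison, Tgm2, and the 3 genes most like Sp1, Met and Egfr. Alternatives were another offset, filter, scaling or variance model, a replicate block, the spike-in ratio as a term, incomplete probe sets kept, either treatment of the B ethanol arrays, and each array left out. With 2 arrays a group, their number limits the precision.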

Additional observations from a re-analysis of the deposited data

Results flagged for a closer look

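The effect of ethanol on Met 1422990_at differed between genotypes by 1.07 on the log2 scale (limma, adjusted p = 0.0435): the probe set fell in WT and gave no called change in KO. For 3 Egfr probe sets the differences between same-lettered arrays went one way with ethanol in WT and the opposite way in KO. The letters were not taken as pairs, and the WT values were small for 1460420_a_at (-0.09 and -0.11) and 1424932_at (0.02 and 0.17). The limma test of the difference of ethanol effects called none of the 3. That difference was 0.65 for 1460420_a_at (adjusted p = 0.0717), -0.36 for 1424932_at (adjusted p = 0.116) and 1.18 for the dim 1432647_at (adjusted p = 0.221).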

How the results depend on the processing

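Over the members' results and all alternatives, 1496 values kept their side of the threshold, 128 lost it, 41 passed it newly and 0 were counted as reversed. Keeping the side did not mean keeping the sign. Some uncalled values changed sign, such as Egfr 1454313_at for ethanol in WT (0.09, from -0.51 to 0.85) and the difference of ethanol effects on Sp3 (0.24, from -0.28 to 0.55). The number of member calls in KO against WT untreated, 6, stayed within 1.5 times under every setting, but not always on the same probe sets. The Sp3 call ended in 3 of 19 alternatives and that of Egfr 1435888_at in 1 of 19, while Met 1422990_at was newly called in 6 of 18. For ethanol in WT the 3 calls became 1 without the variance trend, and 1 to 3 with an array left out. For ethanol in KO the 4 became 2 without the filter, 1 without the trend, 2 with incomplete probe sets kept, 2 with the spike-in ratio as a term, and 1 to 5 with an array left out. The 1 called difference of ethanol effects became 0 with an offset of 64, without the filter, without the trend or with incomplete probe sets kept (limma; 4 to 6 members had an unadjusted p under 0.05), 4 with both B ethanol arrays left out, and 0 to 5 with 1 array left out. Counting both B ethanol arrays as untreated gave 0 for ethanol in WT, 0 for ethanol in KO, 1 for KO against WT with ethanol and 0 for the difference of ethanol effects, beside 0, 3 and 1 members at an unadjusted p under 0.05 where the count was 0. With the replicate block the counts were 3, 3, 6, 6 and 2; the deviations of same-lettered arrays correlated at 0.204 to 0.302 among untreated WT, WT ethanol and KO ethanol, whose A and B arrays also differ in the spike-in ratio, and at 0.0218 to 0.0308 with untreated KO, so the letters were not taken as pairs. Over all probe sets the 1105 calls for ethanol in WT became 715 without the filter, 286 without the trend, 0 with the B arrays as untreated (752 unadjusted) and 284 to 2088 with an array left out. The 4394 for ethanol in KO became 2682 without the trend, 7351 without the B ethanol arrays, 380 with them as untreated and 1642 to 7479. KO against WT went from 6394 to as few as 3972 untreated, and from 5770 to 3306 or, with the B arrays as untreated, 1367 with ethanol. The 1061 differences of ethanol effects became 663, 85, 3261 and 0 (2401 unadjusted) for no filter, no trend, B left out and B as untreated, and 199 to 4380. Trimmed-mean scaling shifted the median of all probe sets by 0.08 for ethanol in KO and 0.11 for KO against WT with ethanol. The causes were not tested. Dim probe sets limit what can be seen for Sp4 and for 3 of the Egfr probe sets.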
